A study of Mus musculus with 3 samples.

Results

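Sorted natural killer B (NKB) cells were compared with B cells across every named gene of a mouse expression array. The genes were taken from the array annotation alone: of 44170 transcripts, 41886 carried a gene name, and averaging the transcripts of each name on the log2 scale gave 24203 genes. The NKB cells, titled natural killer B cells, came from the spleens of wild-type (WT) C57/BL6 mice aged 8 weeks. The B cells came from the same tissue, genotype, strain and age. No agent is named for either group. An array of natural killer (NK) cells of the same source, the third of the 3 arrays in the series, is quoted beside some values as a description only. Each population was hybridised to 1 array, so no difference below has a replicate check and none could be tested. Precision is limited by there being 1 array a population. How the cells were gated, and from how many mice, is not stated in the labels. For every sample the text on sorting speaks of LT-HSCs (long-term hematopoietic stem cells) where the titled population would stand. Of 13 stem and progenitor genes, 4 were above the detection level on the NKB array and 3 on the B array, and Kit, Cd34, Procr and Mecom, which mark such cells, were under it on both. Those above it in NKB were Ly6a (Sca-1), Cd48, Lmo2 and Hlf, of which the first 3 were also above it in B, with Ly6a at 1099 in NKB and 1368 in B. Hlf, a transcription factor gene, was above it in NKB alone, at 176 against 36.4. All 4 transcripts were higher, but the gene was short of a 2-fold call. They read 457.7, 147.0, 128.9 and 110.3 in NKB, of which 128.9 and 110.3 lay under the level of 135.6. The part of stem cell RNA in the differences was not tested.

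B cells recognise antigen through a membrane immunoglobulin whose signal passes through Cd79a and Cd79b, take antigen up and present it on MHC class II. NK cells carry no rearranged antigen receptor. They read activating and inhibitory surface receptors, release granzymes and perforin, and secrete chemokines such as Ccl5. NKB cells have been described as innate lymphocytes of spleen and lymph node that bear surface markers of both lineages and make the cytokines IL-18 and IL-12.

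Values are intensities as the authors deposited them, on a linear scale. Each array's detection level was set from 902 genes of olfactory and vomeronasal receptors, which lymphocytes are taken not to express, as the intensity that 95% of them did not exceed. It was 135.6 for NKB and 149.3 for B. Intensities under it were set to it, a gene was called higher or lower at a 2-fold difference, and "at least" marks a fold whose dimmer side lay under the level. The median transcript read 65.1 on the NKB array and 64.3 on the B array. Above their level were 6028 genes in NKB and 5645 in B, with 4010 on both arrays.

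NKB and B cells differed in both directions to a similar extent. Of the 24203 genes, 1098 (4.54%) were called higher in NKB and 1149 (4.75%) lower. Because a gene under the level on the B array cannot be called lower, the shares depend on where a gene stood in B: of the 5645 genes above the level in B, 680 (12.0%) were higher and 1149 (20.4%) lower in NKB, and of the 18558 under it 418 (2.25%) were higher. Among genes that read from 500 to 2000 in B the lower calls reached 40.7% of 1291, against 11.5% higher, and above 2000 they were 32.7% of 425, against 17.4% higher. These shares are the background for every gene group below. Over genes above the level on both arrays the median log2 difference was -0.07, with a standard deviation of 1.11 across genes. Differences of at least 4-fold were found for 265 higher and 248 lower genes, and differences of at least 16-fold for 11 and 7.

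**Figure D1:**
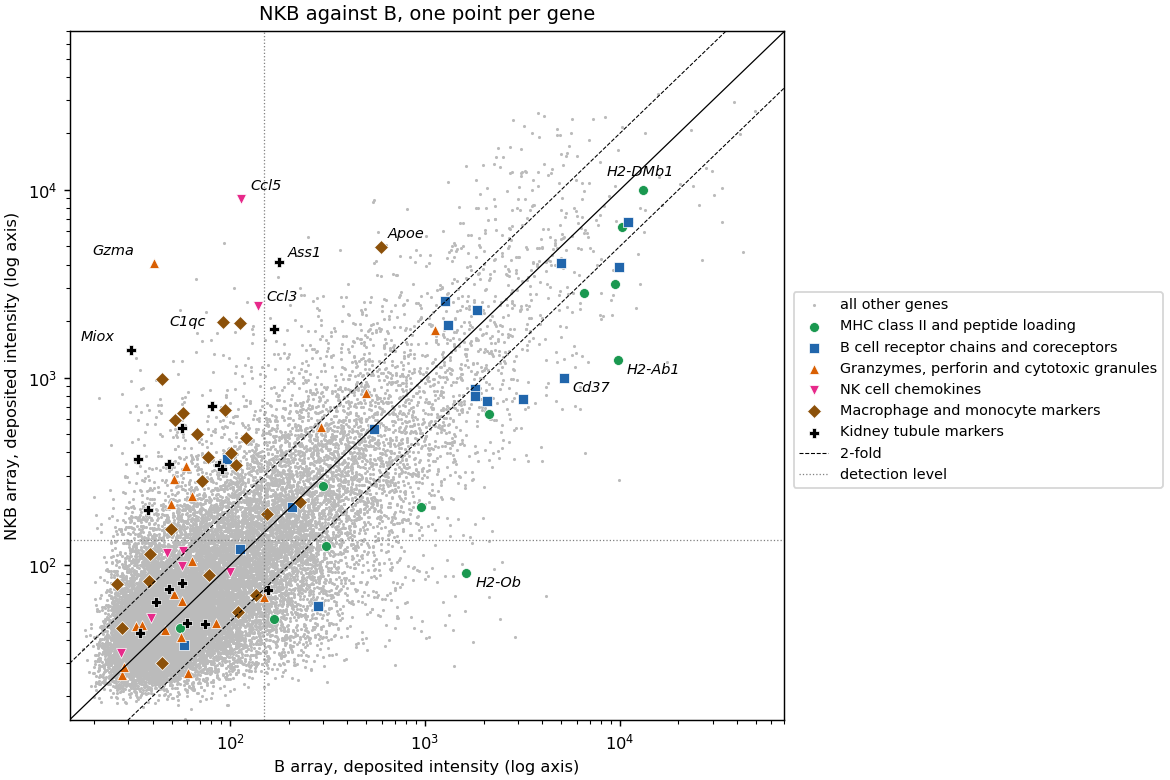
Intensity of each gene on the NKB array (y) against the B array (x), both on log axes, with 6 gene lists in colour and all other genes in grey. Dashed lines mark a 2-fold difference and dotted lines the detection levels of 135.6 (NKB) and 149.3 (B). The MHC class II points lie on or under the diagonal, while many macrophage and kidney tubule genes and the chemokines Ccl5 and Ccl3 lie at the upper left.

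Genes read by several transcripts give the only repeat measurement inside an array. Of the called genes with several transcripts, 172 of 400 higher and 150 of 375 lower ones passed 2-fold on every transcript, and in 343 and 328 every transcript at least pointed the same way. Among the 15 largest of this kind in NKB were genes of enzymes and transporters. Ass1, the urea-cycle enzyme argininosuccinate synthase (chr2:31325789-31376190, MM9), read 4117 in NKB and 177 in B and was 23.2-fold higher. Its 2 transcripts read 3803 and 4458 in NKB, against 244.9 and 128.5 in B. Slc27a2, an acyl-CoA synthetase for long fatty acids, read 2239.7 in NKB and 75.2 in B, with all 3 of its transcripts between 1461 and 3951 in NKB and under 100 in B. Rida, an enzyme that clears reactive imines, read 1748 and 106 in NKB and B, and Slc34a1, a phosphate transporter of the kidney proximal tubule, 1809.5 and 167. None of these 4 genes was above 120 on the NK array, whose own level was 140.1.

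Others of these 15 act in RNA handling, chromatin and protein synthesis. The RNA-binding protein gene Taf15 read 2762 in NKB and 231 in B, the spliceosome-associated gene Luc7l3 2029 and 214, the cold-shock RNA-binding protein gene Ybx1 3169 and 404, and the large ribosomal subunit gene Rpl36a 13454 and 1617. The chromatin regulator Arid4a was 9.18-fold higher, the histone H4 gene H4c11 at least 12.2-fold higher and the noncoding host transcript Snhg8 7.15-fold higher. Sod1, the cytosolic superoxide dismutase, read 4063 and 1714 on its 2 transcripts in NKB, against 385.9 and 199.7 in B. Ndufb10, a subunit of respiratory complex I, was 8.00-fold higher, and Prxl2a, a peroxiredoxin-like protein gene, at least 11.5-fold higher. Apoe, the lipid carrier, completed the 15 at 4986 in NKB and 592 in B, with folds on its 2 transcripts of 18.7 and 3.79.

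Lower on every transcript were 2 genes of MHC class II presentation, described below, and regulators of signalling and transcription. Grk2, the kinase that desensitises G protein-coupled receptors, read 179 in NKB and 1291 in B, and its 3 transcripts were 3.01-fold, 6.97-fold and 17.8-fold lower. Gnb2, a G protein beta subunit, was 5.33-fold lower, and Ppp2r1a, the scaffold of protein phosphatase 2A, 5.35-fold lower. The deubiquitinase gene Usp19 was 6.53-fold lower, the Polycomb protein gene Cbx7 5.52-fold lower, the corepressor gene Tle3 5.45-fold lower and the glutamine transporter gene Slc1a5 5.87-fold lower. Fbrs (6.40-fold lower), Zswim8 (5.86-fold lower), Cnp (at least 5.35-fold lower), Dennd4b (at least 5.29-fold lower), Prr5 (at least 5.17-fold lower) and the ribosomal pseudogene Rplp1-ps1 (5.93-fold lower) were the rest of these 15. Of the 15, all but H2-Ob read above 200 on the NK array.

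**Figure D2:**
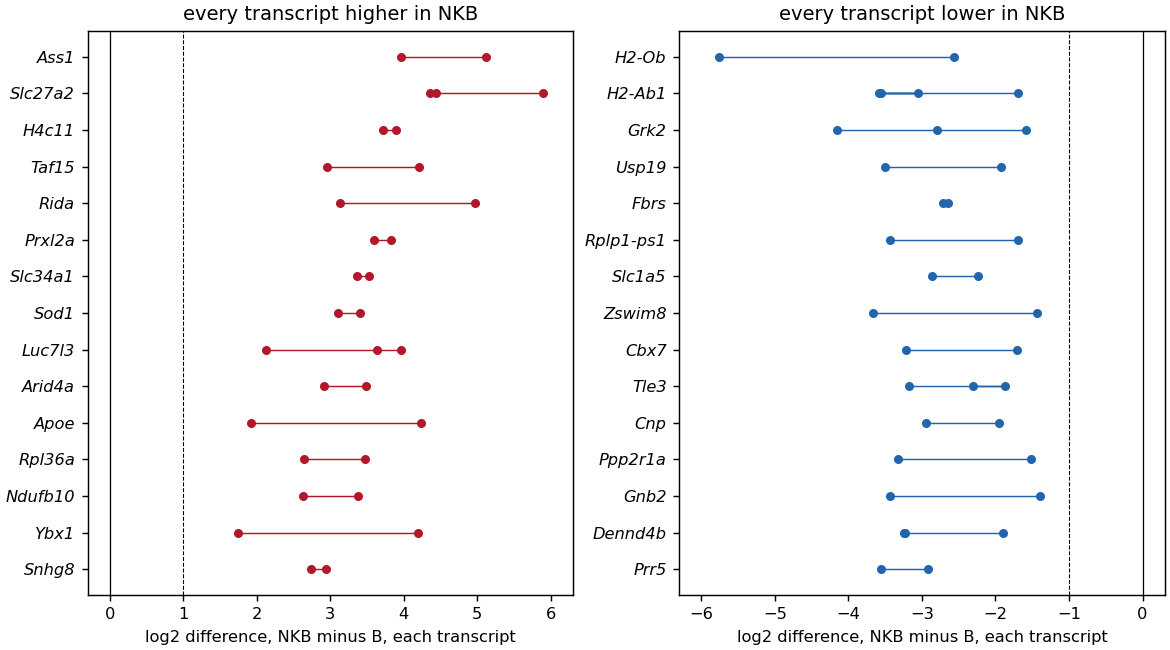
Log2 difference, NKB minus B, of each transcript (points) of the 15 genes with the largest mean difference in each direction among those whose transcripts all passed 2-fold (dashed line). No detection level was applied to single transcripts here, so points can lie beyond the gene's bound. Points of a gene lie up to 3.20 apart, as for H2-Ob at -5.76 and -2.56.

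The label was checked against lineage markers. Of the 17 B cell receptor chains and coreceptors, 14 were above the level on the NKB array and 14 on the B array. Of 18 NK lectin and activating receptors 7 were above it on the NKB array and 2 on the B array. The NK1.1 antigen gene Klrb1c read 191 in NKB, 41.7 in B and 922 in NK cells. Ncr1, which encodes NKp46, had 2 transcripts that disagreed: one read 315.4 in NKB, 307.6 in B and 950.3 in NK cells, the other 273.8, 81.8 and 99.7. Il2rb, a receptor chain through which NK cells receive IL-15, read 151, 46.0 and 5119, while the granule gene Nkg7 was under the level in NKB at 64.5 and read 3584 in NK cells. The NKB array thus carried B cell markers and a subset of the NK markers. Klrb1c, Klrd1 and Il2rb read far below their NK intensity, whereas the Fc receptor gene Fcgr3, which myeloid cells also express, read 181 in NKB and 180.4 in NK cells. In RNA from a sorted pool, fewer cells of a type and less RNA per cell cannot be told apart.

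Transcription factors of the B lineage had 3 higher and 4 lower of 18 (16.7% and 22.2%). Of genes above the level in B, where 17 of the 18 stood, 12.0% were higher and 20.4% lower. Pax5, which commits cells to the lineage, was 8.36-fold higher at 10954 against 1310.3 on its only transcript. Ebf1, which acts with Pax5, read 545 in NKB and 581 in B. Irf4, needed for activated B cells and plasma cells, was 5.27-fold higher, and Bcl6, the repressor of germinal centre B cells, 2.17-fold higher. Among the lower ones, Foxo1 read 430.5 in NKB and 1795 in B, and all 5 transcripts of the octamer-binding factor gene Pou2f2 were lower, at log2 differences of -3.01 to -1.11. Bach2, which restrains plasma cell differentiation, was 2.74-fold lower and the E protein gene Tcf3 2.56-fold lower. The coactivator gene Pou2af1 read 1888 and 2308 in NKB and B. Mef2c averaged 908 in NKB and 911 in B over transcripts that passed 2-fold in both directions (-1.05 to 1.16), as did those of Ikzf1 (-1.02 to 1.81) and Ikzf3 (-1.55 to 2.94). Spi1, Irf8 and Ets1 were also within 2-fold.

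Receptor chains and coreceptors had 2 higher and 7 lower of 17 (11.8% and 41.2%), with a median log2 difference of -0.61. Their median B intensity was 1801, and the shares were near the 11.5% and 40.7% of all genes between 500 and 2000 in B. Ighm, the heavy chain gene of IgM, read 6754 in NKB and 10982 in B. Cd79b read 3893 in NKB and 9943 in B, whereas its partner Cd79a read 4056 and 4977. The complement receptor gene Cr2 and the tetraspanin gene Cd81, which act beside the receptor, were within 2-fold of B. Cr2 read 1894 in NKB and 1317 in B, and Cd81 2290.3 and 1839.9. Cd37, another tetraspanin gene, was 5.18-fold lower, with all 4 of its transcripts lower. Of the inhibitory receptors, Siglecg was 2.26-fold lower, and Cd22 was 2.09-fold lower as an average of 6 transcripts that ran from -2.66 to 0.56 on the log2 scale. The IgM receptor gene Fcmr was 2.77-fold lower, and Cd38, an ectoenzyme gene, at least 2.08-fold lower. Both higher members were surface proteins: Ms4a1, which encodes CD20, at 2562 in NKB and 1268 in B, and the inhibitory Fc receptor gene Fcgr2b, which macrophages also express, at 366 and 96.5.

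Downstream of the receptor, 2 of 22 kinases and adaptors were higher and 5 lower (9.1% and 22.7%). These shares were near the 12.0% and 20.4% of genes above the level in B, where 20 of the 22 stood. The kinase gene Syk, the first to bind phosphorylated receptor chains, read 357 in NKB and 1398 in B, lower on both transcripts, and Blk, a Src-family kinase of B cells, 446 and 1292. Btk and the linker gene Blnk lay within 2-fold at 2409 and 1276 in NKB, against 1548 and 776 in B. Rasgrp3, which links the receptor to Ras, was 3.52-fold higher on 2 transcripts that both passed 2-fold. In the complex that carries the signal to NF-kappaB, Bcl10 was at least 3.22-fold lower and Malt1 was 2.14-fold higher as an average of transcripts that disagreed in direction (log2 differences of -0.60 to 2.97). The phosphatidylinositol 3-kinase gene Pik3cd was 2.40-fold lower and the inositol phosphatase gene Inpp5d 2.04-fold lower.

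The NF-kappaB group itself had 1 higher and 5 lower of 13 (38.5%, at a median B intensity of 345, beside 12.3% lower of all genes from the level to 500), and its members parted widely. Rel, the subunit induced in activated lymphocytes, read 8866 in NKB and 548 in B, on 1 transcript. The other 2 subunits with a transactivation domain were lower: Rela read 161 in NKB and 431 in B, and Relb was under the NKB level at 127, against 339.5 in B. Nfkb2, the precursor of p52, was at least 3.81-fold lower, while Nfkb1, the precursor of p50, read 417 and 488 in NKB and B. The inhibitor gene Nfkbia was 4.01-fold lower, and its relative Nfkbib at least 2.72-fold lower.

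MHC class II presentation was the gene group with the highest share of lower members, 7 of 12 (58.3%) and none higher, against 20.4% lower over all genes above the level in B and 40.7% among those from 500 to 2000, where the members' median B intensity of 1865 lay. Without the detection level all 12 members read lower in NKB, with a median log2 difference of -1.44. The chains that form the antigen-presenting heterodimers were lower on every transcript. H2-Ab1, the beta chain of the A molecule (chr17:34400185-34406355, MM9), read 1361, 1153, 917.8 and 1639.6 on its 4 transcripts in NKB, against 16292, 9632, 10828 and 5307 in B. H2-Aa, its alpha partner, read 643 in NKB and 2139 in B, and H2-Eb1, the beta chain of the E molecule, 3144 and 9416. NK cells read 644, 138 and 622 for the 3 genes, so NKB stood above NK and below B for each.

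The genes that load peptides onto those chains were split. H2-Ob, a chain of the H2-O molecule, which restrains loading (chr17:34375849-34382743, MM9), read 90.9 in NKB and 1627 in B. It was under the level in NKB, so that it was at least 12.0-fold lower. H2-DMb1, a chain of the loading catalyst H2-M, read 9954 in NKB and 13169.6 in B, and its partner H2-DMa 266 and 299. H2-DMb2, a close paralog of H2-DMb1 whose signal may be shared with it, was 2.32-fold lower. Cd74, the invariant chain that guards the groove, read 6344 in NKB and 10277 in B. Among the regulators, all 5 transcripts of Ciita, the class II transactivator, were lower, and the gene read 205 against 954. Rfx5, a subunit of the factor that binds the X box of class II promoters, was at least 2.29-fold lower. Its partner Rfxank read 51.4 in NKB and 168 in B, and Rfxap was under the level on both arrays.

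Many class II promoters hold a Y box, an inverted CCAAT box next to the X box, and 4 of them are shown because their genes cover the range from H2-Ob, with the largest difference of the group, to H2-DMb1, within 2-fold of B. Of the 12 members 8 had a RefSeq promoter. RefSeq promoters (GRCm38.p6, 250 bases before to 50 after the start site) were searched for GATTGG, the core of the Y box, as the only motif. The stretches of 180 bases run 5′ to 3′ on the gene's strand, and capitals mark the motif.
H2-Ob (chr17:34238765-34238944, plus strand): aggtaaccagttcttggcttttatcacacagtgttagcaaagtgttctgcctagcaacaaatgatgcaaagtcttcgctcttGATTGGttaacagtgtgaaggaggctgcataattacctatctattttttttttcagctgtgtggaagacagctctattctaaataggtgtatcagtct
H2-Aa (chr17:34287784-34287963, minus strand): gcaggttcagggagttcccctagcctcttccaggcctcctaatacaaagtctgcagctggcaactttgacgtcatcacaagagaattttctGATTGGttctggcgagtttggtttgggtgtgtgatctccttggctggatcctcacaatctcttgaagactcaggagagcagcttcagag
H2-Eb1 (chr17:34305727-34305906, plus strand): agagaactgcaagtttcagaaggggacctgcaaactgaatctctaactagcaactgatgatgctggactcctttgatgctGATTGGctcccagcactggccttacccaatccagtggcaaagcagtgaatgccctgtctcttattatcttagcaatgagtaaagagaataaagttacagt
H2-DMb1 (chr17:34153051-34153230, plus strand): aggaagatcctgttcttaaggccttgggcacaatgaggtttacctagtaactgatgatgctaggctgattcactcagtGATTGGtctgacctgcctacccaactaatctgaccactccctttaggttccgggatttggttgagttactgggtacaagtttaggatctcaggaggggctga

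The motif began 58 bases before the start site in H2-Ob, 49 in H2-Aa, 60 in H2-Eb1 and 62 in H2-DMb1, and in H2-DMb2 it began 91 bases before it. Of all 32851 promoters, 16.1% held GATTGG on either strand, and 1.93% held it on the gene's strand beginning 70 to 39 bases before the start. The letters stood at a similar place in the promoter of H2-Ob, with the largest difference, and in that of H2-DMb1, within 2-fold of its B intensity. Neither of the 2 promoters of H2-DMa, whose difference was the smallest of the group, held them in that window, nor did those of Rfx5 and Rfxank on the gene's strand.

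**Figure D3:**
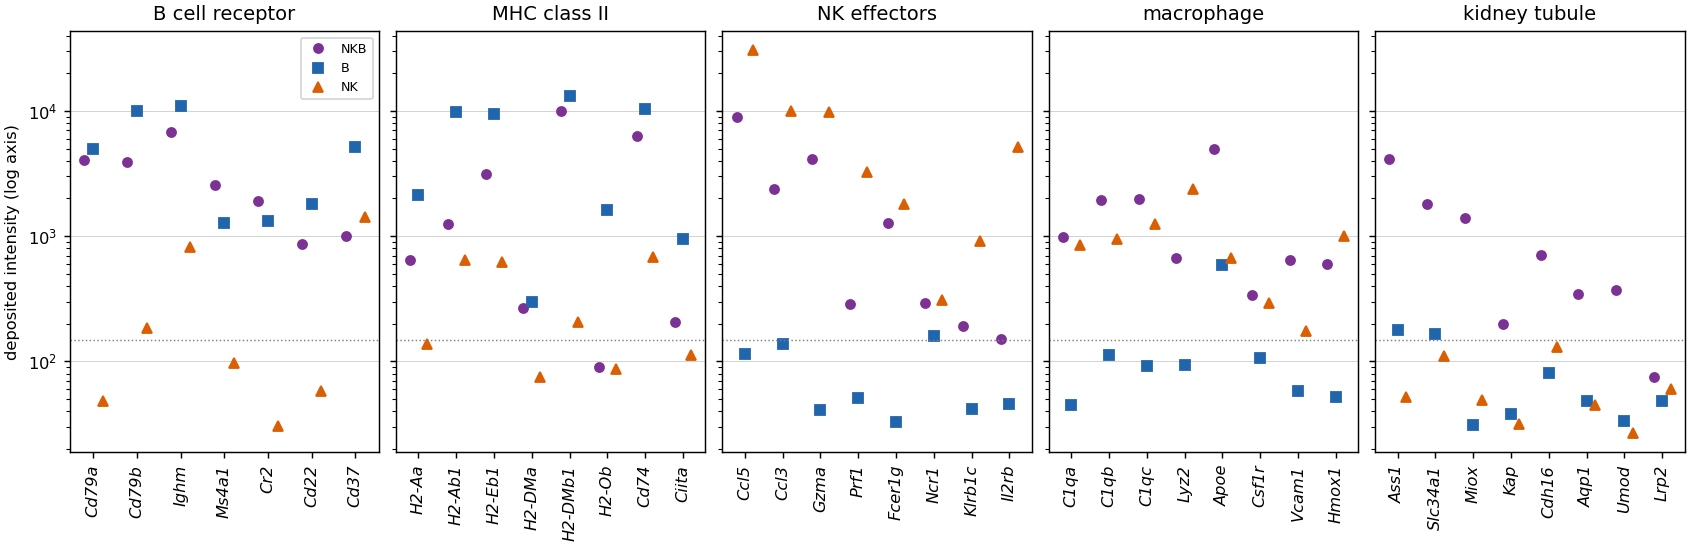
Intensity (log axis) of selected members of 5 groups on the NKB (circles), B (squares) and NK (triangles) arrays, 1 array each, with the detection level of B dotted. The members were picked by hand, and NK effector genes under the level in NKB, such as Ccl4 and Nkg7, are not drawn. In the MHC class II panel NKB lies at or under B for every gene drawn, and in the NK effector panel between B and NK for every gene drawn. In the kidney panel NKB alone rises well above the level.

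MHC class I presentation had 2 higher and 4 lower of 15 (13.3% and 26.7%), beside 11.5% and 40.7% of all genes from 500 to 2000 in B, where the members' median of 1129.8 lay. The class I heavy chain gene H2-K1 was 2.15-fold lower and the nonclassical H2-M3 2.63-fold lower. B2m, the common light chain, read 10885 in NKB and 6405 in B. Tap1 was at least 2.32-fold lower, on 2 transcripts at -2.70 and -0.50 (log2). Tap2, which forms with it the pump that brings peptides into the endoplasmic reticulum, was 2.05-fold lower. Pdia3, a disulfide isomerase of the loading complex, was 3.68-fold higher on 2 transcripts at 1.82 and 1.94 (log2). The immunoproteasome gene Psmb8 was 2.18-fold higher, and its companion Psmb9 read 804 in NKB and 1129.8 in B.

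Genes of antibody secretion had 3 higher and 1 lower of 17 (17.6% and 5.9%), beside 4.54% and 4.75% of all genes. Of genes above the level in B, where 11 of the 17 stood, 12.0% were higher and 20.4% lower. Jchain, which joins secreted IgM subunits, read 499.7 in NKB and 65.9 in B. Mzb1, a chaperone gene of marginal zone B cells and plasma cells, was 2.42-fold higher, and Hsp90b1, an endoplasmic reticulum chaperone gene, 5.16-fold higher. The regulators of plasma cell fate were not higher: Prdm1 and Xbp1 were under the NKB level at 75.3 and 80.0, against 155 and 202 in B. Among 15 genes of B1 and marginal zone B cells, 3 were higher and 1 lower. Notch2, the receptor that marginal zone B cells need, was 2.81-fold higher, and the Notch regulator gene Dtx1 was at least 2.57-fold lower at 33.5, against 349 in B. The marker Cd9 read 304 and 228, and Cd5, which marks B1a cells, was under the level on both. Of 19 costimulation and survival receptors, 1 was higher and 2 lower (5.3% and 10.5%), with 13 above the level in B. The early activation antigen gene Cd69 read 558 in NKB and 117 in B, Icosl was 2.15-fold lower and Ltb, a membrane lymphotoxin, 2.36-fold lower, while the BAFF receptor gene Tnfrsf13c read 2712 and 1668.

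Chemokines and granzyme A led the few NK effector genes that exceeded B. Of 20 granzymes and granule genes 2 were higher and none lower, and of 8 NK chemokines 2 were higher and none lower. Ccl5 read 8916 in NKB, 114 in B and 30429.7 in NK cells, and was at least 59.7-fold higher than in B. Ccl3 read 2399.9, 139 and 9932, while its neighbour Ccl4 was under the level in both NKB and B at 91.8 and 100.4. Granzyme A (Gzma) read 4098 in NKB, 40.7 in B and 9758 in NK cells. Granzyme B (Gzmb) and perforin (Prf1) were above the level in NKB at 233 and 288, short of a 2-fold call against the level of B, and read 1684 and 3275 in NK cells. The protease gene Ctsw was at least 2.27-fold higher. The death ligand gene Fasl and Nkg7 were under the level in NKB and in B.

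Among receptors, the Ly49 family, inhibitory and activating lectins that recognise MHC class I, had 5 higher and none lower of 19 (26.3%), against 2.25% higher among genes under the level in B, where 18 of the 19 stood. Klra8 read 623 in NKB and 95.4 in B, higher on all 3 transcripts, and Klra3 563 and 40.9. Klra23 was 2.88-fold higher, and the pseudogenes Klra13-ps and Klra14-ps also passed 2-fold, at 1066 and 530.5 in NKB, against 81.5 and 138 in B. These genes are near-identical copies, so that signal may be shared between them and the count of members is uncertain. Of the other lectin and activating receptors 1 of 18 was higher (5.6%), Klri2 at 311 in NKB and 33.1 in B. Klrd1 read 204 in NKB, 45.2 in B and 1003 in NK cells. The maturation marker Klrg1 read 68.6, 49.7 and 1971. Without the level, the median log2 difference was 1.52 for the Ly49 family and 0.79 for the other receptors, beside 0.01 for all genes.

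Of 11 receptor adaptors and kinases 1 was higher (9.1%, beside 4.54% of all genes) and none lower. Only 3 of the 11 were above the level in B and could be called lower. Fcer1g, the signalling chain of Fc receptors in NK cells and macrophages alike, read 1270.5 in NKB and 33.0 in B, and Tyrobp, the adaptor of activating NK receptors, 194, 108 and, in NK cells, 2858. Transcription factors of NK and T cells had none higher and 2 lower of 13 (15.4%, beside 4.75% of all genes), with 5 above the level in B. Eomes was under the level on both arrays, at 132 in NKB and 36.5 in B, Id2 read 285 and 80.4, and Runx3 was at least 2.22-fold lower. The IL-2, IL-15, IL-12 and IL-18 receptor group had none higher and 2 lower of 15 (13.3%), with 7 above the level in B. The lower ones were the kinase gene Jak3 (3.49-fold lower) and Il10ra (at least 2.20-fold lower). The common cytokine receptor chain gene Il2rg read 1939 in NKB and 3873 in B.

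Of 18 cytokine genes, none was higher and 1 lower (5.6%, beside 4.75% of all genes), Tgfb1 at 637 in NKB and 1494 in B. Only 2 of the 18 were above the level in B and could be called lower. Il18 read 232 in NKB, 102 in B and 86.6 in NK cells, above its level in NKB alone, though short of a 2-fold call against the level of B. Its 2 transcripts were both higher, at 606.2 and 88.4 in NKB, against 200.1 and 51.6 in B. The 88.4 lay under the NKB level of 135.6. The part of macrophage or kidney RNA in the Il18 value was not tested. Il12a and Il12b, the subunits of IL-12, were under the level on all 3 arrays, at 45.9 and 43.4 in NKB, against 72.5 and 42.3 in B. Ifng was under the level in NKB at 67.8 and in B at 38.6.

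Homing receptors were mostly within 2-fold, with 2 higher and 1 lower of 16 (12.5% and 6.2%), beside 4.54% and 4.75% of all genes. Of the 16, 9 were above the level in B. Ccr7, which guides lymphocytes towards T cell zones, read 321 in NKB and 898 in B. Gpr183, which positions B cells at the edge of follicles, read 1146 and 446, and S1pr5, a receptor for egress of NK cells, 511 and 53.5. The follicle-homing receptor gene Cxcr5 read 538 in NKB and 737 in B, and the egress receptor gene S1pr1 1169 and 1253. Integrins differed by chain, with 3 higher and 2 lower of 17 adhesion genes (17.6% and 11.8%), of which 7 were above the level in B. Itgb1 was 4.40-fold higher, higher on all 3 transcripts, and Itgal, the LFA-1 alpha chain, at least 2.95-fold higher. Itgb7, which forms gut-homing integrins, read 63.4 in NKB, 1244 in B and 1060.5 in NK cells, and Icam2 was 2.37-fold lower. Vcam1, also on the macrophage list, was at least 4.33-fold higher.

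Innate sensing genes had 1 higher and 3 lower of 18 in the Toll-like receptor group (5.6% and 16.7%), beside 4.54% and 4.75% of all genes. Of the 18, 8 were above the level in B, and of all genes above it 12.0% were higher and 20.4% lower. Tlr1 read 69.3 in NKB and 641 in B and its close relative Tlr6 199 and 825. Ly86, the partner of Cd180, was 3.02-fold lower, while Cd180 itself read 681 and 604. In the interferon-stimulated group 2 of 24 were higher and 2 lower (8.3% each). The higher ones were the antiviral genes Ifit3 (2.93-fold higher) and Mx2 (at least 2.56-fold higher). Lower were the interferon regulatory factors Irf9 (at least 3.14-fold lower) and Irf7 (at least 2.39-fold lower). The 3 transcripts of Irf9 ran from -3.33 to -0.19 (log2).

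Immediate-early genes, which stimuli induce within minutes, went both ways, with 4 higher and 5 lower of 21 (19.0% and 23.8%). Of genes above the level in B, where 16 of the 21 stood, 12.0% were higher and 20.4% lower. The higher ones ranged from Fos, part of the AP-1 factor (2.12-fold higher), to the zinc finger factor gene Klf6 (3.50-fold higher), with Klf4 and the nuclear receptor gene Nr4a2 between. The lower ones ranged from Myc (2.71-fold lower) to Jund, an AP-1 partner of Fos (4.60-fold lower). Between them were Egr3, the phosphatase gene Dusp2 and the mRNA decay factor gene Zfp36. The 2 transcripts of Egr3 disagreed, at log2 differences of -3.44 and 0.20. The TNF ligand gene Tnfsf11 (RANKL) read 102 in NKB and 1554 in B.

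Markers of other cells were higher on the NKB array for macrophages, the kidney tubule and red cells. Of 24 macrophage and monocyte markers, 12 were higher and none lower (50.0%), 16 were above the level in NKB and 3 in B. Members under the level in B could not be called lower, and 2.25% of all genes under it were higher. The summed intensity of the 24 was 15304 in NKB, 2523 in B and 11370 in NK cells. The complement genes C1qa, C1qb and C1qc read 984, 1951 and 1972 in NKB, against 44.7, 113 and 92.2 in B. Lyz2, lysozyme of myeloid cells, read 671 and 93.7, and Hmox1, heme oxygenase of red pulp macrophages, 595 and 51.9. Spic, the transcription factor of those macrophages, was at least 2.51-fold higher. Adgre1, which encodes the macrophage antigen F4/80, was at least 3.20-fold higher and the hemoglobin scavenger receptor gene Cd163 at least 2.65-fold higher. The kinase receptor genes Csf1r and Axl also passed 2-fold, each with 1 transcript that read lower (down to -0.95 and -0.65 on the log2 scale). Cd14 and Marco were under the level on both arrays. Fcer1g, Fcgr2b, Apoe and Vcam1, described above, are also genes of macrophages, and the part of macrophage RNA in any difference was not tested.

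Kidney tubule markers had 9 higher and none lower of 17 (52.9%), and their summed intensity was 10593 in NKB, 1283 in B and 1163 in NK cells. Only 3 of the 17 were above the level in B and could be called lower. Of all genes under that level 2.25% were higher. Besides Ass1 and Slc34a1, the inositol oxygenase gene Miox read 1407 in NKB and 30.9 in B, the cadherin gene Cdh16 705 and 80.5, the water channel genes Aqp2 and Aqp1 538 and 348 in NKB, against 56.6 and 48.3 in B, and uromodulin (Umod) 369 and 33.5. Slc22a6, an anion transporter of the proximal tubule, was at least 2.29-fold higher, and its glucose transporter Slc5a2 at least 2.19-fold higher. Slc12a1, Slc12a3, Lrp2, Calb1 and Pvalb, and the podocyte gene Nphs1 that stands in the same list, were under the level in NKB. The part of such RNA in the differences of enzymes and transporters was not tested.

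Erythroid markers had 4 higher (23.5%, beside 4.54% of all genes) and none lower of 17. Only 4 of the 17 were above the level in B and could be called lower. The summed intensity of the 17 was 12431 in NKB, 2237 in B and 10240 in NK cells. The globin gene Hbb-b1 read 5583 in NKB and 252 in B, Hba-a1 3468 and 597, and Hba-a2 1921 and 462, while Alas2 and Klf1, which mark red cell precursors, were under the level on both. Of 18 T cell markers 2 were higher (11.1%), Cd2 at 12429 in NKB and 3129 in B and Thy1 at 528 and 222, both also on NK cells. Cd3g was above the level in NKB, at 214, and under it in B, at 38.2, and read 224 in NK cells. Cd3e read 146 and 200, and Cd3d, Cd4 and Cd8a were under the level in NKB and B. No neutrophil, dendritic cell, platelet or stromal marker was called, of 14, 12, 9 and 16 on the array. Whether any of these cells contributed to the differences was not tested.

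Lysosomal and iron genes, many of them abundant in macrophages, were also more often higher. Cathepsins and lysosomal genes had 8 higher and 3 lower of 25 (32.0% higher). Of the 25, 18 were above the level in B. The higher share was 12.0% over genes above that level and 4.54% over all genes. Ctsb read 7916 in NKB and 809.7 in B, the lysosomal membrane tetraspanin gene Cd63 2299 and 55.0, and prosaposin (Psap) 9902 and 2642. The direction was not shared by all: Ctsz, another cathepsin gene, read 261 in NKB and 2005 in B, and Laptm5, a lysosomal gene of lymphocytes, 455 and 2149.6, lower on all 3 transcripts. Iron handling genes had 4 higher and none lower of 16. Transferrin (Trf) read 2997 in NKB and 104 in B, the ferritin heavy chain gene Fth1 18532 and 6949, and the iron regulatory protein gene Ireb2 520 and 204, with Hmox1 as the fourth.

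Housekeeping family shares are over all members, beside 4.54% higher and 4.75% lower over all genes. Over genes above the level in B the shares were 12.0% and 20.4%, and members under it could not be called lower. Above it in B were 49 of 85 oxidative phosphorylation subunits, 32 of 77 mitochondrial ribosomal proteins and 27 of 38 proteasome subunits. So were 34 of 79 chaperones and 47 of 67 splicing factors and hnRNP proteins. Oxidative phosphorylation subunits had 19 higher and 6 lower of 85 (22.4% and 7.1%), with Ndufa12 at least 17.0-fold higher, Cox6c 11.5-fold higher and Uqcr10 5.54-fold higher, and with Atp5g3 at least 7.98-fold lower. Mitochondrial ribosomal proteins had 12 higher and 2 lower of 77 (15.6% and 2.6%), led by Mrpl39 at 2719 in NKB and 300.2 in B. Proteasome subunits had 9 higher and none lower of 38 (23.7%), among them Psmd6, Psma4 and Psmc5 (at least 7.65-fold higher, 4.45-fold higher and 3.62-fold higher). Chaperones had 13 higher and 4 lower of 79, with the cytosolic Hsp90ab1 at 12362 in NKB and 3127 in B and the chaperonin subunit gene Cct5 at 4790.3 and 902, and Hspa8 2.58-fold lower. Splicing factors and hnRNP proteins had 14 higher and 7 lower of 67: Hnrnpul2 was 16.0-fold higher, Srsf1 4.37-fold higher on both transcripts, Hnrnpd 4.37-fold lower and Sf3a2 3.20-fold lower.

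Translation initiation and elongation factors had 4 higher and 12 lower of 77 (5.2% and 15.6%), beside 4.54% and 4.75% of all genes. Only the 47 members above the level in B could be called lower, so the 15.6% cannot be set against the 20.4% of genes above it. Eef1a1, the factor that brings aminoacyl-tRNA to the ribosome, read 10190.5 in NKB and 33494 in B, lower on all 5 transcripts. Within the eIF3 complex the subunits disagreed: Eif3e was 8.03-fold higher and Eif3a at least 2.46-fold higher, whereas Eif3i was 3.44-fold lower and Eif3f 3.04-fold lower. The list, drawn by name, holds 3 pseudogenes among the lower members (Eef2-ps2, Eif1-ps1 and Eif1-ps3) and the Argonaute genes Ago1 and Ago2 under their older names. Cytosolic ribosomal proteins went both ways, 14 higher and 12 lower of 87. Rpl29 read 19126 in NKB and 3835 in B and Rpl14 12460.2 and 2805, whereas the stalk protein genes Rplp0 and Rplp1 read 824 and 751, against 2928 and 2804. Ribosomal protein genes have many processed copies, so their single values are uncertain.

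Proliferation genes were mostly uncalled, with 2 higher and 5 lower of 43 cell cycle and replication genes (4.7% and 11.6%). The shares over all genes were 4.54% and 4.75%, and 17 of the 43 were above the level in B. Mki67, expressed in cycling cells, read 994 in NKB and 129 in B, higher on all 3 transcripts, and Top2a 432 and 53.8. The replication helicase gene Mcm6 was at least 3.15-fold lower and Mcm4 at least 2.34-fold lower. The Mcm6 call rests on 1 of its 2 transcripts, at a log2 difference of -3.58, since the other read 40.8 on both arrays. The ribonucleotide reductase gene Rrm1, the transcription factor gene E2f2 and the cell cycle kinase gene Cdk4 were also lower, at 101, 118 and 250.1 in NKB, against 277, 484 and 517 in B. The cyclin B genes Ccnb1 and Ccnb2 and Cdk1 were under the level on both arrays. In the HMG group, Hmgb2 read 3414 in NKB and 176 in B on 1 transcript, and Hmga1 was at least 3.76-fold lower. Cholesterol and fatty acid synthesis had none higher and 3 lower of 24. Srebf2, the transcriptional regulator of sterol genes, read 105 in NKB and 545 in B, the cholesterol enzyme gene Dhcr7 was at least 2.31-fold lower and Acly, which makes acetyl-CoA for both pathways, 2.34-fold lower. In the autophagy group Gabarapl1 was at least 5.44-fold higher and Gabarapl2 4.25-fold higher, while their relative Gabarap was 2.74-fold lower on 3 transcripts that all read lower. V-ATPase subunits had 5 higher and none lower of 23, although their median log2 difference of 0.05 was -0.12 after a new quantile normalization.

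Glycolysis and the citric acid cycle had 6 higher and 2 lower of 38 genes (15.8% and 5.3%), beside 4.54% and 4.75% of all genes. Of the 38, 26 were above the level in B, and of all genes above it 12.0% were higher and 20.4% lower. Lactate dehydrogenase B (Ldhb) read 932 in NKB and 118 in B, the cycle enzyme gene Idh2 343 and 82.4, and the succinate dehydrogenase genes Sdha and Sdhd were both higher. The citrate synthase gene Cs, the entry to the same cycle, was 2.08-fold lower, and the glycolytic enzyme gene Pfkl 2.89-fold lower. In the urea and arginine group, besides Ass1, its partner Asl was at least 2.08-fold higher and the ornithine aminotransferase gene Oat 3.64-fold higher, with none lower of 11. The part of kidney or macrophage RNA in these values was not tested.

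Families of chromatin and RNA enzymes were balanced. Of 64 histone genes 5 were higher and 5 lower (7.8% each), beside 4.54% and 4.75% of all genes. Of these, 4 of the 5 higher ones encode H4 and 4 of the 5 lower ones H3. Histone genes are near-identical copies, so their single values are uncertain. Of 53 RNA helicases 5 were higher and 3 lower, with Dhx9 13.1-fold higher and Ddx3x at least 3.22-fold lower. Among membrane and signalling families, Rab proteins had 7 higher and 2 lower of 57 (12.3% and 3.5%) and tetraspanins 3 and 1 of 27 (11.1% and 3.7%). Mitochondrial carriers had 2 and 1 of 47 (4.3% and 2.1%) and protein tyrosine phosphatases 2 and 2 of 34 (5.9% each). TNF ligands and receptors had 1 and 2 of 38 (2.6% and 5.3%). Rab11a, a regulator of recycling endosomes, was 8.07-fold higher, and Rab10 2.40-fold lower. The ubiquitin-conjugating genes had 4 higher and 2 lower of 30, among them Ube2j1, an enzyme of endoplasmic reticulum quality control, at 4800.4 in NKB and 366 in B. Apoptosis genes had 1 higher and 2 lower of 26 (3.8% and 7.7%). The caspase inhibitor gene Xiap was 2.30-fold higher, and the death effectors Bid and Bax read 379 and 208 in NKB, against 761 and 505 in B. Transcripts of Xiap ran from -0.85 to 2.80 (log2) and those of Bax from -2.29 to 0.06.

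**Figure D4:**
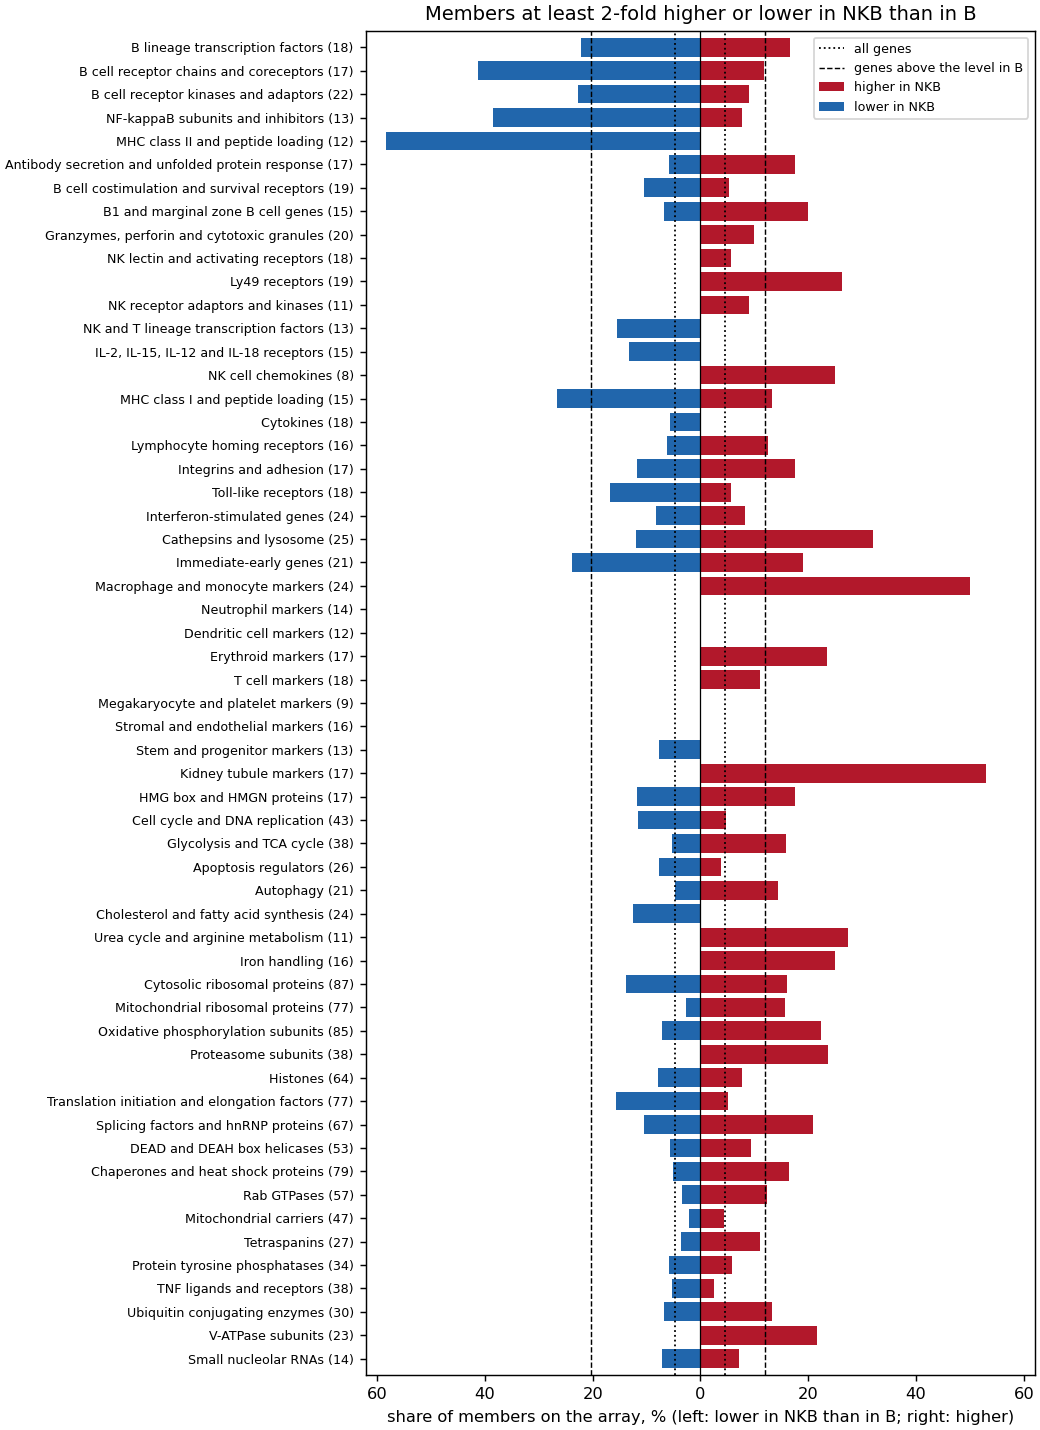
Share of each gene list's members on the array (number in brackets) called at least 2-fold higher (red, right) or lower (blue, left) in NKB than in B. Dotted lines give the shares over all genes, 4.54% higher and 4.75% lower, and dashed lines those over genes above the level in B, 12.0% and 20.4%. MHC class II reaches 58.3% lower, and macrophage and kidney tubule markers 50.0% and 52.9% higher.

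Among genes with 1 transcript, whose values rest on 3 probes, the largest excesses after Ccl5 and Gzma were those of Nucb2, a calcium-binding protein gene (5188 in NKB and 92.6 in B), the small nucleolar RNA Snord82 (3343 and 66.4) and Hbb-b1. Among the largest deficits were those of Sval2 (68.7 in NKB and 4177 in B), the neuronal transcription factor gene Neurod6 (51.4 and 2425), Srpk3, a kinase gene of muscle (135 and 2125), and the ribosomal pseudogene Rpl31-ps21 (14.5-fold lower).

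The direction of the difference varied with where a gene lies. For each gene above the level on both arrays, the number of array genes that start within 500 kb on either side was counted on MM9, which gave a value for 3992 of 4010 genes. The genes were put into 5 bins of similar size by that number. In the bin with the fewest neighbours, 0 to 9, the median log2 difference (NKB minus B) was 0.16, with 21.8% of genes higher and 15.4% lower. In the bin with the most, 34 to 76, it was -0.42, with 7.84% higher and 23.8% lower. The bins between had medians of 0.12, 0.01 and -0.21, so the medians fell in the order of the number of neighbours. The rank correlation across genes was -0.19, a weak relation given as a description, since neighbouring genes are not independent and all share both arrays. The NK array, set against the same B array, had a median of -0.43 in the bin with the fewest neighbours and -0.27 in the bin with the most. Gene span gave a smaller trend the other way, with a median of -0.24 among the shortest 799 genes and 0.10 among the longest 799 (rank correlation 0.13), and the 2 properties were not separated.

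**Figure D5:**
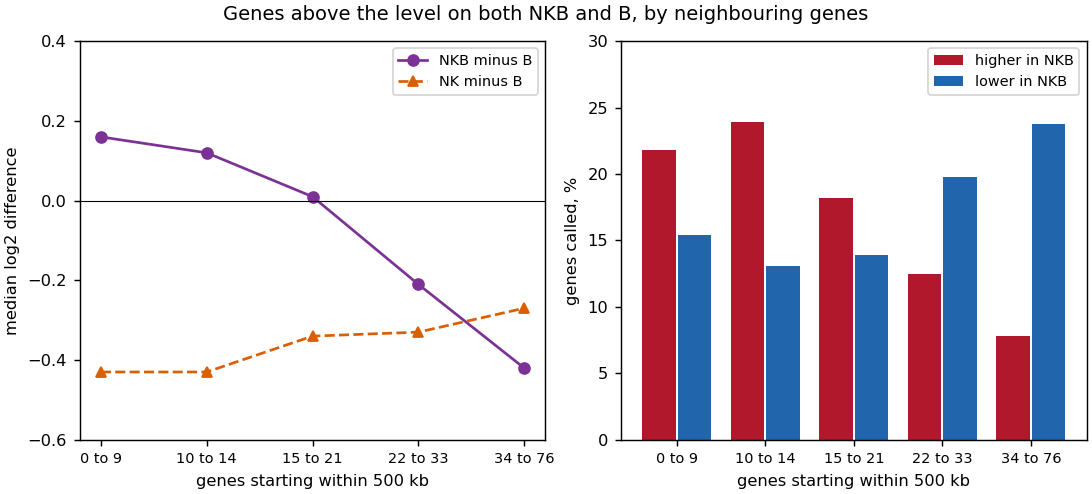
Left: median log2 difference by number of array genes starting within 500 kb, for NKB minus B (circles) and NK minus B (triangles, sharing the B array). Right: share of genes called higher or lower in NKB, over 3992 genes above the level on both NKB and B. The NKB medians run from 0.16 to -0.42 and the share of higher genes is 21.8% in the first bin and 7.84% in the last.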

How the data were processed

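RNA of sorted mouse spleen cells was copied to cDNA with oligo dT primers, labelled with Cy3 and hybridised to NimbleGen 1-colour arrays, per the labels' protocols. The authors deposited linear intensities, normalized with RMA per the submitters' processing notes, with 3 probes for 44155 of the 44170 transcripts and MM9 positions, per the file headers. The background and between-array settings are not given in the sources used here. In the authors' deposited table of log2 ratios of NKB over B, 3075 transcripts passed 2-fold higher and 4142 lower, and its log2 values equal those recomputed here.

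Transcripts of a gene name were averaged as log2 values, and 3270 symbols were updated by gene identifier from a RefSeq table (GRCm38.p6). Ratios of values under the detection level were bounded by it, and list medians use the values as deposited, since the levels of the 2 arrays differ by -0.14 (log2, NKB minus B). No model was fitted, because each group is 1 array. The genes and the 57 lists (1566 genes) were chosen with earlier results of these data known, so their counts are descriptions. Genes named are 15 each way that differ on every transcript, 3 each way of every list, 5 each way with 1 transcript, and a set of lineage markers. Further list members are named to account for counts or complete a complex, and were chosen after their values were seen. A few genes that these rules name are not reported here. The calling step was tested on simulated data. Other levels, scalings, thresholds and summaries of transcripts were tried. Python 3.11.15, numpy 2.4.6, pandas 2.3.3 and matplotlib 3.10.9 were used.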

Additional observations from a re-analysis of the deposited data

Results flagged for a closer look

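Transcripts without a gene name, which the comparison did not use, also held differences between the arrays. Of the 2284, 89 (3.9%) passed 2-fold in favour of NKB and 126 (5.52%) in favour of B, beside 4.54% and 4.75% of named genes that were higher and lower in NKB. The shares differ in unit, since these are single transcripts and named genes are averages of their transcripts. Among the unnamed transcripts, 15 carry an immunoglobulin description, of which 1 was higher and 3 were lower.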

How the results depend on the processing

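The counts depended most on the detection level. Against 1098 higher and 1149 lower genes, a level at the 99th percentile of the olfactory and vomeronasal genes gave 475 and 700, the median of each array 2067 and 2076, and no level 3192 and 3137. A 4-fold threshold gave 265 and 248, and genes with at least 2 transcripts alone gave 400 and 375. The brightest transcript in place of the mean gave 1940 higher. Of the genes on the lists, 341 were called, against 199 at the 99th percentile and 551 with no level. A shift of the B array (1114 and 1126), quantile normalization (985 and 1288), the median over transcripts (1134 and 1198) and leaving out predicted names stayed within 1.5 times. A call only where every transcript passed did so too, but it cannot drop a gene of 1 transcript. Among called genes with several transcripts it kept 172 of 400 higher and 150 of 375 lower. Under quantile normalization the log2 difference of 308 of 316 named genes moved by less than the standard deviation between the gene's transcripts. With the brightest transcript 293 of them did, but this count was largely fixed in advance. A gene of 1 transcript cannot move there. For a gene of 2 transcripts the shift is always under that standard deviation, unless the detection level intervenes. A gene of 1 transcript was given the median standard deviation of genes with several. This measure does not compare calls. Of the named genes called in the report, only Bax turned its direction, to 0.06 (log2) on its brightest transcript, and the cause was not tested. Some uncalled genes also changed sign there, such as Ptpn6, with -0.87 as a mean and 1.15 on its brightest transcript. No paired analysis was possible because each group is 1 array. Dim genes are limited most: 18558 of 24203 were under the level in B, where only a bound can be given.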

Other observations

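Transcripts of 1 gene pointed in opposite directions, each past 2-fold, for 162 genes. Ptprc, which encodes CD45 and is spliced differently among lymphocytes, averaged 204.5 in NKB and 209 in B over 5 transcripts whose log2 differences ran from -2.80 to 3.62. Larp1b, an RNA-binding protein gene, had transcripts from -4.54 to 4.11, and Clspn, a replication checkpoint gene, from -6.07 to 1.08. Lcp1, the leukocyte actin-bundling protein gene, ranged from -3.45 to 1.80. The mean of such a gene describes none of its transcripts.

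Genes with predicted or clone names were lower more often than named ones. Of 5518, 164 (2.97%) were higher in NKB and 319 (5.78%) lower, and of 129 ribosomal protein pseudogenes 16 were higher and 37 lower, with a median log2 difference of -0.31. Functional cytosolic ribosomal proteins had a median of -0.23.

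By chromosome, over genes above the level on both arrays, the median log2 difference was -0.29 on chromosome 7, with 10.1% higher and 24.4% lower, and 0.19 on chromosome 18, with 24.5% higher and 9.2% lower. Chromosome 13 had 26.1% higher and 17.0% lower.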
